A study of Mus musculus with 2 samples.

Results

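Respiratory chain and ATP synthase genes were compared between L-Lpcat3 KO livers, from Lpcat3fl/fl mice with the Albumin-Cre transgene, and control livers, from Lpcat3fl/fl mice with no Cre. The genes were chosen by name: every probe set, a group of short array probes for 1 transcript, whose annotated symbol begins with Nduf, Uqcr, Cox4 to Cox8 or Atp5, or is Sdha, Sdhb, Sdhc, Sdhd, Cyc1 or Cycs. Of 45101 probe sets, 194 carried such a symbol. Those with several gene symbols, 10 in number, were left unnamed, and the other 184 belonged to 92 of the 18193 genes on the array. Mice of both groups were male and homozygous for the floxed allele, which was made in C57BL/6N embryonic stem cells and bred into C57BL/6 mice. They began a western diet at 7 weeks of age and stayed on it for 9 weeks. Livers were taken at 16 weeks, after a fast of 6 hr. Cre was driven by the albumin promoter, which is active in hepatocytes, so other liver cells of the L-Lpcat3 KO mice kept an intact gene. Since control mice lacked Cre, an effect of Cre itself and one of the deletion cannot be told apart. RNA of 5 mice was pooled for 1 array per genotype, so each value below is that of a pool, with no replicate, no test and no p-value. The study measured how loss of hepatic Lpcat3, an acyltransferase that places arachidonate into membrane phospholipids, affects gene expression in the liver.

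The respiratory chain lies in the inner mitochondrial membrane. Complexes I and II take electrons from NADH and succinate and pass them to ubiquinone, complex III passes them on to cytochrome c, and complex IV passes them to oxygen. Complexes I, III and IV pump protons as they do so, and ATP synthase, also called complex V, uses the gradient to make ATP. Nuclear genes encode most subunits. The other subunits are encoded in mitochondrial DNA, and no probe set with 1 gene symbol carried the name of any of those 13 genes here. Hepatocytes are rich in mitochondria, and in liver the chain reoxidises the NADH and FADH2 formed when fatty acids are burned.

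Lpcat3 had a signal of 2198 in L-Lpcat3 KO liver, against 5173 in control liver, which left 42.5% of the control signal on its single probe set. Signals are the authors' MAS5 intensities on a linear scale, and both arrays had a trimmed mean of 500.0. A signal is not comparable between probe sets, so levels are set against each other only between the 2 arrays. Values under 86.6, the median of all values, were raised to that floor. A gene counted as measured if either array was at or above the floor, and where it had several probe sets, the brightest stood for it. Of 12 hepatocyte markers, 11 had a probe set with 1 gene symbol, and all 11 were measured. Their signals ran from 5620.5 for G6pc to 44841 for Apoa1 in L-Lpcat3 KO liver, and from 5952 to 48786 for the same genes in control liver.

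None of the 87 measured genes of the respiratory chain and ATP synthase differed by 1.5-fold between the pools. Of all 12290 measured genes, 12.9% differed by at least 1.5-fold (9.07% higher and 3.83% lower in L-Lpcat3 KO liver), and 3.4% by at least 2-fold. Among the 1084 measured genes with a mean signal of at least 5000, where most of the subunit genes lay, the shares were 3.32% at 1.5-fold and 1.01% at 2-fold. The log2 ratios (L-Lpcat3 KO over control) ran from -0.38 for Ndufaf4 to 0.45 for Ndufb1, and 80 of the 87 genes lay within 1.2-fold. The other 5 genes (Cox4i2, Cox6b2, Cox7b2, Cox8b and Ndufb4) were under the floor on both arrays.

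**Figure D1:**
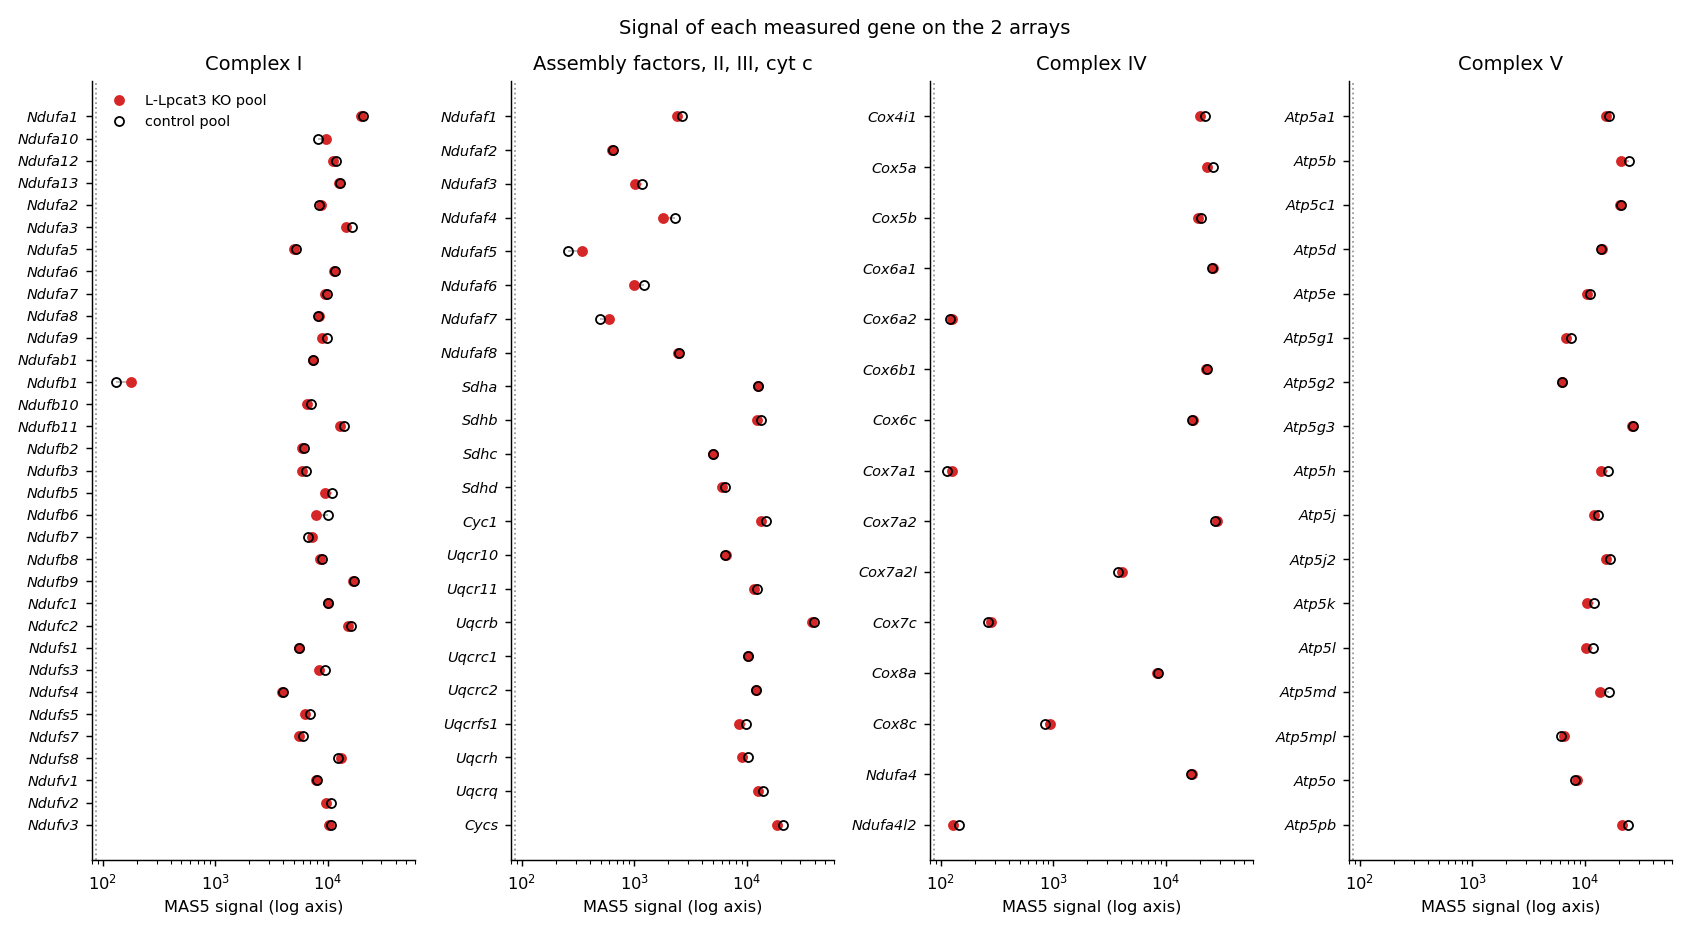
MAS5 signal (log axis) of each measured gene on the L-Lpcat3 KO array (filled red points) and the control array (open black points), 1 pool of 5 mice each; the dotted line is the floor of 86.6. The pairs nearly coincide at all signals, and the widest gaps are those of Ndufb1, Ndufaf5, Ndufaf4 and Ndufb6.

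The spread among these genes was narrow. The SD of the log2 ratio was 0.139 over the 87 genes, against 0.418 over all measured genes. It was 0.0996 over the 71 subunit genes with a mean signal of at least 5000, against 0.270 over the 1013 other genes above that signal. Probe sets of 1 gene give a sense of measurement error, without the spread between mice: their pooled SD was 0.127 over 49 of these genes with at least 2 measured probe sets. Over probe sets with a mean signal of at least 5000 it was 0.0839 (31 genes), against the SD of 0.0996 among the subunit genes above that signal.

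The median log2 ratio of the 87 genes was -0.07 (95.2% of control), against 0.01 over all measured genes. A ratio below 0 was found for 61 of the 87, or 70.1%, against 48.8% of all measured genes. Genes of high signal shared this lean. Of the 1084 genes with a mean signal of at least 5000, 64.6% were below 0, and their median was -0.07 as well. After loess, which removes a trend of the ratio with signal, the median of the 87 genes was -0.0024, with 45 below 0. After quantile normalization the median of the measured genes of the set was -0.0074, with 46 below 0. The lean was thus close to 0 under those scalings, and the ratios given below are those of the authors' scaling.

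**Figure D2:**
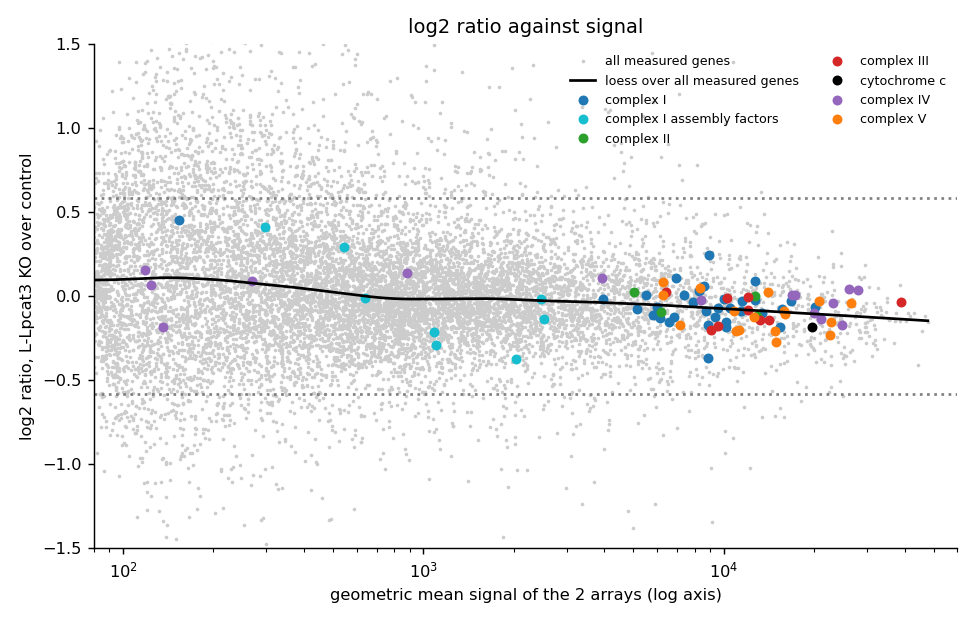
log2 ratio, L-Lpcat3 KO to control (y axis) against the geometric mean signal of both arrays (x axis, log) for measured genes. Subunit and assembly factor genes of the set are coloured by complex. Dotted lines mark 1.5-fold, and ratios beyond 1.5 in size are outside the plot. The black loess curve over all genes falls below 0 at high signal, and most subunit genes lie along it.

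Promoter sequence was read for 75 of the 92 genes (80 promoters, from 250 bases before to 50 after the start of the gene; RefSeq, GRCm38.p6). Transcription of these genes is known to involve nuclear respiratory factor 1 (NRF-1), the ETS factor GABP and the estrogen-related receptors (ERR). The promoters of Ndufaf4 and Ndufaf5, the assembly factors of lowest and highest ratio, are shown with those of Ndufb6, the subunit gene of lowest ratio, and of Cycs, to give examples of the NRF-1 and GABP letters. The promoter of Ndufb1, the gene of highest ratio, held none of the letters searched and is not printed. The letters searched on both strands were CGCATGCG preceded by G and followed by C for NRF-1, CCGGAAG for GABP and TCAAGGTCA for ERR, and CGCATGCG alone as an NRF-1 core, which is contained in the full NRF-1 motif and was added after the Cycs promoter had been seen. Capitals mark the matches. The promoters lie at chr4:24897833-24898132 on the plus strand (Ndufaf4), chr2:140170396-140170695 on the plus strand (Ndufaf5), chr4:40279372-40279671 on the minus strand (Ndufb6) and chr6:50566520-50566819 on the minus strand (Cycs), each printed in the direction of the gene.
Ndufaf4: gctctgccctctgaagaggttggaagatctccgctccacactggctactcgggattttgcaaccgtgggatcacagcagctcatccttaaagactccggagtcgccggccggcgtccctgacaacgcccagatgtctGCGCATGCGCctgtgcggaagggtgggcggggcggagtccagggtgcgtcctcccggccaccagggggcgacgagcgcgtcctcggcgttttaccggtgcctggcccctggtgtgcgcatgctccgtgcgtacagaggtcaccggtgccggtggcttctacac
Ndufaf5: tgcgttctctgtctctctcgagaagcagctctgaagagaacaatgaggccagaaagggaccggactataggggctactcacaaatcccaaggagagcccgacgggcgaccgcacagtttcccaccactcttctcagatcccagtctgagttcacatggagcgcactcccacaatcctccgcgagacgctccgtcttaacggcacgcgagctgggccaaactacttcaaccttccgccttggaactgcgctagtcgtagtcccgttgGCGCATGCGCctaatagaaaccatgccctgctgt
Ndufb6: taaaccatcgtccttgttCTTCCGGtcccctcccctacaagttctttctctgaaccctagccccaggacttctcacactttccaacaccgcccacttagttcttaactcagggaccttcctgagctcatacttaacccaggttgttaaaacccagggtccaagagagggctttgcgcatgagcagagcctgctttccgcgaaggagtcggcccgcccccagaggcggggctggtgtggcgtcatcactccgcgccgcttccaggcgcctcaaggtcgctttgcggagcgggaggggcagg
Cycs: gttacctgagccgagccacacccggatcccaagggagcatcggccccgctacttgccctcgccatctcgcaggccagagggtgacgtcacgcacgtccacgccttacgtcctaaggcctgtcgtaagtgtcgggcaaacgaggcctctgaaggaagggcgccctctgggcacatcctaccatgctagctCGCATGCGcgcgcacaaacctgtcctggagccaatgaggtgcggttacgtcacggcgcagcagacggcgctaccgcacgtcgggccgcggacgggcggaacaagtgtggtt

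Ndufaf4 and Ndufaf5 both held the full NRF-1 motif, from 113 bases before the start in Ndufaf4 and from 16 bases after it in Ndufaf5. In Ndufb6 the GABP letters began 232 bases before the start, and in Cycs the NRF-1 core began 61 bases before it. Among all 80 promoters of the set, 7.5% held the full NRF-1 motif, against 0.971% of all 32851 promoters of this length. The GABP letters were in 23.8%, against 8.86% of all promoters, the ERR letters in 2.5%, against 0.423%, and the NRF-1 core in 13.8%, against 1.87%. Among promoters of measured genes alone the shares were 1.93% for the full NRF-1 motif, 16.2% for GABP, 0.298% for ERR and 3.51% for the NRF-1 core. The 19 measured genes with the GABP letters had a median of -0.12, against -0.06 for the 52 without, and the 6 with the full NRF-1 motif had a median of -0.0032, against -0.08 for the 65 without. For the NRF-1 core the medians nearly matched, at -0.08 for the 11 genes with it and -0.07 for the 60 without. Those 11 genes ran from -0.38 to 0.41. A match is a description of the letters only.

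Complex I takes up NADH through its peripheral arm and pumps protons through its membrane arm. Its core subunits, which hold the flavin and iron-sulfur clusters, gave 6 measured genes with a median of -0.07, from -0.17 for Ndufs3 to 0.09 for Ndufs8. Ndufv1, which binds NADH and the flavin, had a signal of 7812 in L-Lpcat3 KO liver and 8018 in control liver. Ndufs1, the largest iron-sulfur subunit, was at 5521 in L-Lpcat3 KO liver and 5497 in control liver. The pools nearly matched for both of these subunits. Ndufv2, another iron-sulfur subunit, was at 9648 in L-Lpcat3 KO liver and 10719 in control liver (-0.15), with all 3 probe sets between -0.16 and -0.13. Ndufs7, also an iron-sulfur subunit, was at 5588 in L-Lpcat3 KO liver and 6035 in control liver (-0.11, and -0.21 on its other probe set). Ndufs3, a core subunit without a cofactor, was at 8338 in L-Lpcat3 KO liver and 9388 in control liver. Ndufs8, the highest of the core, had 6 measured probe sets that ran from -0.17 to 0.09. Of the 6 core subunits, 4 were thus below 0 and 2 above it.

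The supernumerary subunits of complex I surround the core and are needed for its assembly and stability. Of their 28 genes 27 were measured, with a median of -0.07, and 21 were below 0 (77.8%). The share was 48.8% among all measured genes and 64.6% among those with a mean signal of at least 5000. Ndufb6, of the membrane arm, was the lowest, with a signal of 7820.1 in L-Lpcat3 KO liver and 10108 in control liver (log2 ratio -0.37). Its other probe set was at 6220.3 in L-Lpcat3 KO liver and 6510.1 in control liver (-0.07), so the size of the difference rests on 1 probe set. Ndufb1, a small membrane-arm subunit, had the highest ratio, 0.45. Its single probe set lay near the floor, at 178.9 in L-Lpcat3 KO liver and 130.9 in control liver. Ndufb4, the unmeasured gene, was at 52.9 in L-Lpcat3 KO liver and 50.9 in control liver on its only probe set with 1 symbol. After Ndufb1 came Ndufa10, at 9697 in L-Lpcat3 KO liver and 8192 in control liver, a log2 ratio of 0.24. Its other probe set, of low signal, was at 0.0052. Ndufab1, the mitochondrial acyl carrier protein and at the same time a complex I subunit, nearly matched, with 7396 in L-Lpcat3 KO liver and 7365 in control liver. Ndufs4, whose loss causes a Leigh-like disease in mice, was at 3947 in L-Lpcat3 KO liver and 3999 in control liver. The remaining supernumerary genes lay between -0.18 for Ndufa3, a membrane-arm subunit, and 0.11 for Ndufb7.

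Complex I is built with assembly factors, proteins absent from the finished complex, and 8 of them are named Ndufaf. They varied more than the subunits: the SD of their log2 ratios was 0.276, against 0.121 for the 79 measured subunit genes. Their signals ran from 342 to 2452 in L-Lpcat3 KO liver and from 257 to 2635 in control liver. Whether signal plays a part in the wider spread was not tested. Ndufaf4 was at 1782 in L-Lpcat3 KO liver and 2314 in control liver (log2 ratio -0.38), and its other probe set was at -0.27. It was thus the gene of the whole set with the lowest ratio, and both of its probe sets lay below 0. Ndufaf6 was at 992 in L-Lpcat3 KO liver and 1215 in control liver (-0.29), on a single probe set. Ndufaf5, an arginine hydroxylase that acts on Ndufs7, was at 341.9 in L-Lpcat3 KO liver and 256.9 in control liver (0.41). Ndufaf7, a methyltransferase, was at 600.5 in L-Lpcat3 KO liver and 490.8 in control liver (0.29). Both enzymes thus had the higher signal in L-Lpcat3 KO liver, each on 1 probe set. Ndufaf1 (-0.13), Ndufaf2 (-0.01), Ndufaf3 (-0.21) and Ndufaf8 (-0.02) completed the group.

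**Figure D3:**
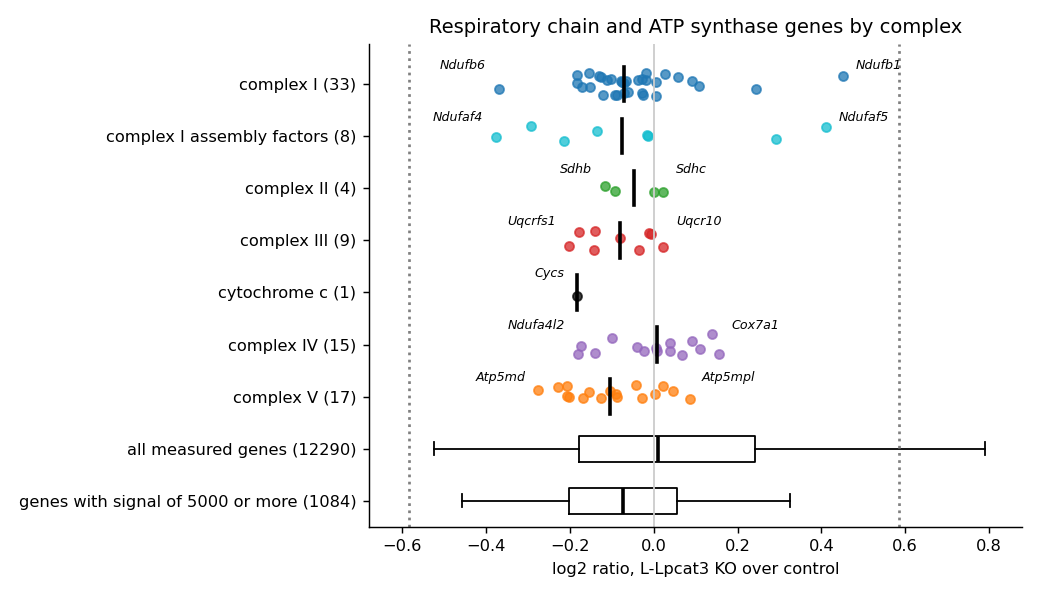
log2 ratio, L-Lpcat3 KO to control (x axis) for each measured gene (points, spread vertically for legibility) by complex, with black bars at the medians and the number of genes in brackets; dotted lines mark 1.5-fold. The boxes show the quartiles of all measured genes and of genes with a signal of 5000 or more, with whiskers at the 5th and 95th percentiles, and every point lies between the dotted lines.

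Complex II, succinate dehydrogenase, belongs to both the tricarboxylic acid cycle and the respiratory chain, and all of its subunits are nuclear-encoded. All 4 genes were measured, with a median of -0.05. Sdha, the flavoprotein that oxidises succinate, had 12688 in L-Lpcat3 KO liver and 12687 in control liver, a log2 ratio of 0.00017. Sdhb, the iron-sulfur subunit, was at 12416 in L-Lpcat3 KO liver and 13461 in control liver (-0.12). The pools were nearly equal for Sdha. Sdhb had 1 probe set, and the median over all genes with a mean signal of at least 5000 was -0.07. Sdhc, a membrane anchor, was at 5049 in L-Lpcat3 KO liver and 4970.1 in control liver (0.02), while its other probe set, at 1957 in L-Lpcat3 KO liver and 2439 in control liver, gave -0.32. Sdhd, the other anchor, was at 5983 in L-Lpcat3 KO liver and 6380.0 in control liver (-0.09).

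Complex III carries electrons through cytochrome b, the Rieske iron-sulfur protein and cytochrome c1. All 9 genes were measured, with a median of -0.08, and 8 of the 9 were below 0. Among all measured genes with a mean signal of at least 5000, 64.6% were below 0, with a median of -0.07. Uqcrfs1, the Rieske protein, had the lowest ratio, with 8481 in L-Lpcat3 KO liver and 9762 in control liver (-0.20). Cyc1, cytochrome c1, was at 13491 in L-Lpcat3 KO liver and 14869 in control liver (-0.14). Uqcrfs1 and Cyc1 each had 1 probe set. The core proteins, which hold no redox centre, nearly matched between the pools. Uqcrc1 was at 10198 in L-Lpcat3 KO liver and 10271 in control liver, and Uqcrc2 at 12025 in L-Lpcat3 KO liver and 12087 in control liver. The other probe set of Uqcrc2 was at 0.10. The small subunits ran from -0.18 for Uqcrh, the hinge protein, to 0.02 for Uqcr10. The other probe set of Uqcrh was at 8831 in L-Lpcat3 KO liver and 8925 in control liver (-0.02). The probe sets of Uqcr10 ran from -0.24 to 0.05. Uqcrb, which contacts the ubiquinone site, had 38331 in L-Lpcat3 KO liver and 39285 in control liver (-0.04).

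Cycs encodes cytochrome c, which carries electrons from complex III to complex IV. Its signal was 18423 in L-Lpcat3 KO liver and 20923 in control liver, a log2 ratio of -0.18. All 4 measured probe sets were below 0, from -0.18 to -0.01, and the value after loess was -0.09.

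Complex IV, cytochrome c oxidase, has several subunits with alternative forms for liver, muscle, lung or testis. The general or liver forms, together with Ndufa4, which was named for complex I but is now assigned to complex IV, gave 10 measured genes of 10 with a median of -0.0089. Cox4i1, the general form of subunit 4, was at 20082 in L-Lpcat3 KO liver and 22115 in control liver (-0.14). Cox5a had the lowest ratio of the group, with 23392 in L-Lpcat3 KO liver and 26368 in control liver (-0.17), and its 3 probe sets ran from -0.17 to -0.10. Cox6a1, Cox7a2 and Cox8a, the liver forms, were at log2 ratios of 0.04, 0.04 and -0.02. Cox7a2, for one, had 28336 in L-Lpcat3 KO liver and 27584 in control liver. Cox6b1, a subunit at the dimer interface, was at -0.04. The highest ratio of the group was that of Cox7c, 0.09, on a probe set of low signal (277 in L-Lpcat3 KO liver and 260 in control liver).

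The forms of other tissues were near or under the floor, apart from Cox8c. The muscle forms Cox6a2 and Cox7a1 were just above it: Cox6a2 had 126.5 in L-Lpcat3 KO liver and 120.7 in control liver, and Cox7a1 125.2 in L-Lpcat3 KO liver and 112.5 in control liver. Cox8b, the muscle and brown fat form of subunit 8, was under the floor in both pools (63.8 in L-Lpcat3 KO liver and 78.7 in control liver). Cox6a2 and Cox7a1 thus had ratios within 1.2-fold, at signals near the floor. Cox8b gave no ratio, since both of its values were under the floor. Of 8 striated muscle markers only 3 were measured. Cox7b2, a testis form, was under the floor as well (2.52 in L-Lpcat3 KO liver and 4.45 in control liver), as were Cox4i2 and Cox6b2, forms of lung and testis. Cox4i2 was at 81.5 in L-Lpcat3 KO liver and 25.7 in control liver, and Cox6b2 at 79.2 in L-Lpcat3 KO liver and 19.15 in control liver. Values this low are not separated from background here. Cox8c, a testis form, was at 925 in L-Lpcat3 KO liver and 840.2 in control liver (0.14), but its other probe set was at -0.28. Ndufa4l2, a hypoxia-induced relative of Ndufa4, was at 127.8 in L-Lpcat3 KO liver and 144.9 in control liver (-0.18). Cox7a2l, classed here as a factor for supercomplexes of complexes III and IV, was at 4078 in L-Lpcat3 KO liver and 3779 in control liver. Its 3 probe sets ran from 0.09 to 0.14, all above 0.

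Complex V consists of the F1 head, where ATP is made, a rotating ring of c subunits in the membrane, a peripheral stalk and small membrane subunits. All 17 genes were measured, with a median of -0.11, and 13 were below 0 (76.5%). Among all measured genes with a mean signal of at least 5000 the share was 64.6%. In the F1 head, Atp5a1 (alpha) was at 15396 in L-Lpcat3 KO liver and 16380 in control liver (-0.09), and Atp5b (beta), which holds the catalytic sites, at 20925 in L-Lpcat3 KO liver and 24523 in control liver (-0.23). Atp5c1, Atp5d and Atp5e, which form the central stalk, were at -0.03, 0.02 and -0.09. The catalytic Atp5b was thus the lowest of the head, on a single probe set. Atp5g1, Atp5g2 and Atp5g3 all encode subunit c. Atp5g1 was at 6721 in L-Lpcat3 KO liver and 7561 in control liver (-0.17), Atp5g2 at 6303 in L-Lpcat3 KO liver and 6286 in control liver (0.0039), and Atp5g3 at 26143 in L-Lpcat3 KO liver and 26910.2 in control liver (-0.04). The 3 genes for the same subunit thus did not separate beyond 1.2-fold between the pools. The peripheral stalk ran from -0.21 for Atp5h (subunit d) to 0.05 for Atp5o (OSCP, the link to the head). The other probe set of Atp5h was at 12134 in L-Lpcat3 KO liver and 12096 in control liver (0.0045). Among the small membrane subunits were both ends of the complex: Atp5md, also known as DAPIT, was at 13617 in L-Lpcat3 KO liver and 16489.9 in control liver (-0.28), and Atp5mpl at 6458 in L-Lpcat3 KO liver and 6086 in control liver (0.09). Atp5k and Atp5l, subunits e and g, which shape ATP synthase dimers, were at -0.20 and -0.21.

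The probe sets of 1 gene often fell on both sides of 0. Of the 49 genes with at least 2 measured probe sets, 21 had all of them below 0, 6 had all above 0 and 22 had them on both sides. Ndufc2, of the membrane arm of complex I, had the widest range, 0.81. Its 3 probe sets of high signal ran from -0.19 to -0.08, and a probe set of low signal, at 227.7 in L-Lpcat3 KO liver and 147.5 in control liver, gave 0.63. This was the only one of the 167 measured probe sets past 1.5-fold. The lowest, -0.47, was a probe set of Ndufb8 with 184.0 in L-Lpcat3 KO liver and 254.4 in control liver, while the other probe set of that gene was at -0.09. Both extremes were thus probe sets of low signal, and the brighter probe sets of the same genes lay between -0.19 and -0.08. The 115 probe sets with a mean signal of at least 5000 lay between -0.37 and 0.24.

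**Figure D4:**
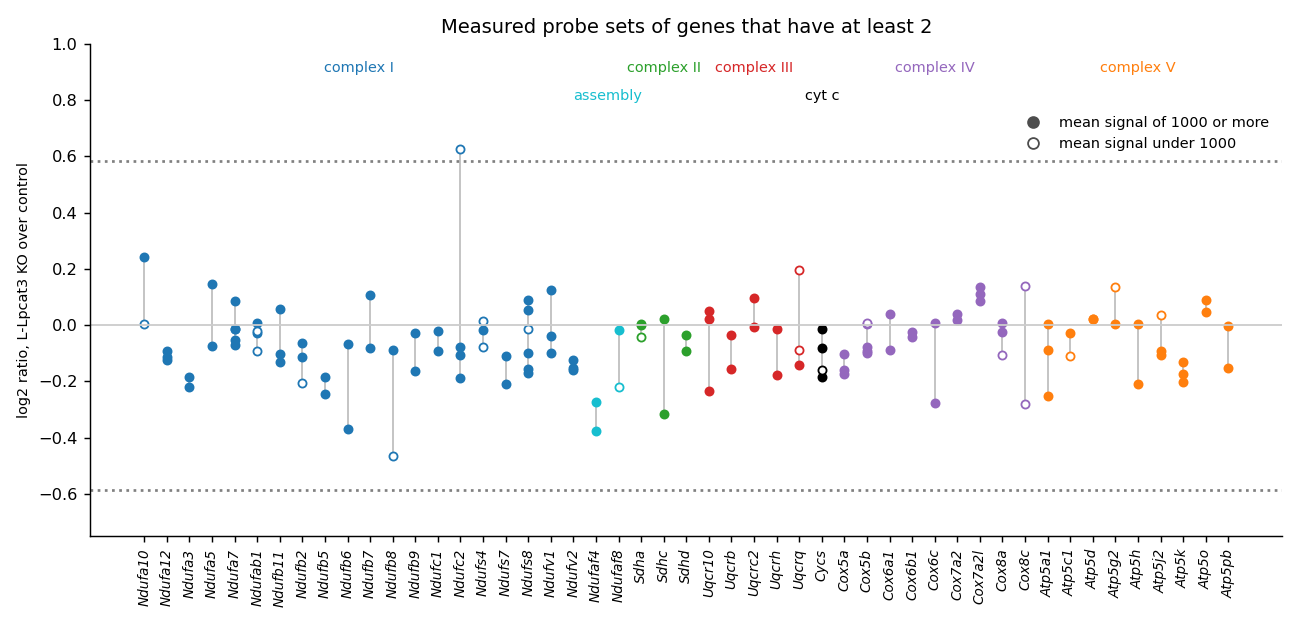
log2 ratio, L-Lpcat3 KO to control (y axis) of each measured probe set, for genes with at least 2 of them (x axis), coloured by complex; filled points have a mean signal of 1000 or more and open points less, and dotted lines mark 1.5-fold. The open points of Ndufc2 (0.63) and Ndufb8 (-0.47) lie farthest from 0.

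Other genes of the pathway were counted from lists of assembly factors and regulators. Of 37 further assembly factors, 34 were measured, with a median of -0.11. Sco1 and Tmem126b, 2 of the 34, were lower in L-Lpcat3 KO liver by 1.5-fold or more, against 3.83% of all measured genes, and none was higher by that much. Sco1, a copper chaperone for complex IV, was at 332.4 in L-Lpcat3 KO liver and 533.0 in control liver (-0.68). Tmem126b, of the complex I intermediate assembly complex, was at 97.9 in L-Lpcat3 KO liver and 209.2 in control liver (-1.09), so its L-Lpcat3 KO value was just above the floor. Each had 1 measured probe set. Cox19, another copper-handling factor of complex IV, had the highest ratio, with 4068 in L-Lpcat3 KO liver and 2828 in control liver (0.52). Of 15 regulators of mitochondrial genes, 14 were measured, with a median of -0.16. A ratio below 0 was found for 11 of them, or 78.6%, against 48.8% of all measured genes. Ppargc1a, the coactivator PGC-1alpha, was at 256.3 in L-Lpcat3 KO liver and 386.2 in control liver (-0.59), past 1.5-fold on its brightest probe set, but the 5 measured ones spanned -0.71 to -0.03, and with a pseudocount of 16 it no longer passed (-0.56). Nrf1, which encodes NRF-1, was at 235.2 in L-Lpcat3 KO liver and 219.4 in control liver (0.10), with probe sets from -0.69 to 0.12. Gabpa was at -0.24, and Esrra, which encodes the receptor ERRalpha, at -0.37 (0.0030 on its other probe set). Tfam, which packages mitochondrial DNA, was at -0.04 (0.08 on its other probe set). The probe sets of Polrmt (-0.38 and 0.28), Gabpb1 (-0.11 and 0.04) and Esrrg (-0.06 and 0.03) also lay on both sides of 0.

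Neighbouring mitochondrial functions were set beside the respiratory chain. In the tricarboxylic acid cycle and pyruvate dehydrogenase list, 17 of 18 genes were measured, with a median of 0.03. On the brightest probe sets none was past 1.5-fold, though another probe set of Idh2 was at 0.67. The highest gene ratio of that list, 0.51, was that of Dlat, a pyruvate dehydrogenase subunit, with 2591 in L-Lpcat3 KO liver and 1826 in control liver. The lowest was that of Idh3a (-0.16). The 76 mitochondrial ribosomal protein genes had a median of -0.03, with none past 1.5-fold on its brightest probe set. They ran from -0.56 for Mrps9 (584.7 in L-Lpcat3 KO liver and 859.0 in control liver) to 0.52 for Mrpl33 (891 in L-Lpcat3 KO liver and 623 in control liver). Other measured probe sets reached -1.13 for Mrpl15 and 1.01 for Mrps14. The probe sets of Mrps9 ran from -0.56 to 0.17. With 1 pool per genotype, the differences between these lists were not tested.

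**Figure D5:**
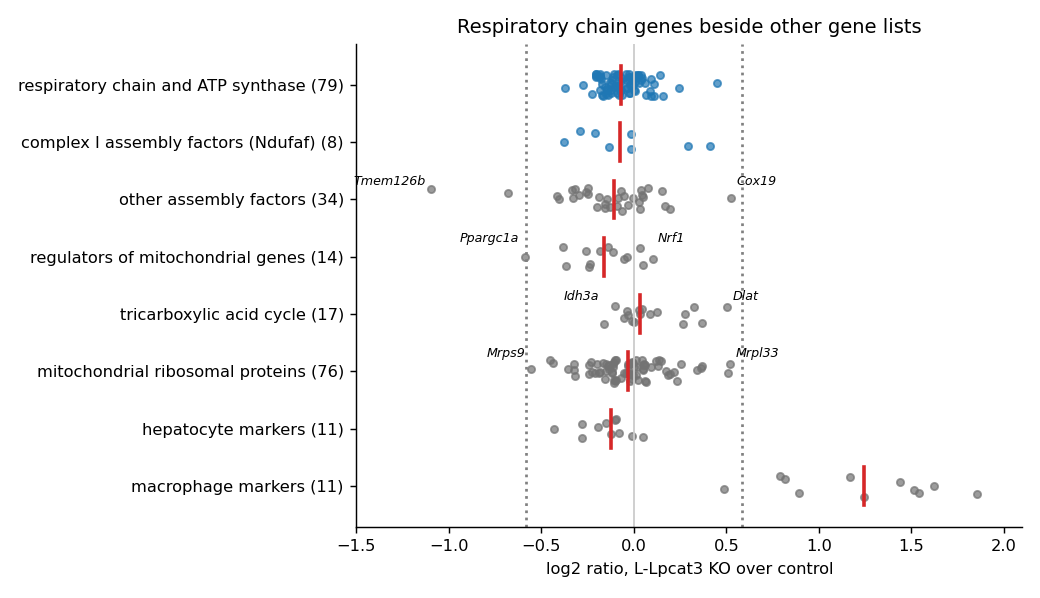
log2 ratio, L-Lpcat3 KO to control (x axis) for measured genes of each list (points), with red bars at the list medians, the number of genes in brackets, and dotted lines at 1.5-fold. Subunit genes and Ndufaf genes, in blue, all lie between the dotted lines, and macrophage markers have a median of 1.24.

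Liver RNA comes from a mixture of cells, and fewer cells of a type and less RNA per cell cannot be told apart. Of the 11 measured hepatocyte markers 10 were below 0, with a median of -0.12, from -0.43 for Tat to 0.05 for Alb. All 11 had signals above 5000 on both arrays. Among the 1084 genes with a mean signal of at least 5000, 64.6% were below 0, with a median of -0.07. All 11 macrophage markers were above 0, with a median of 1.24, from 0.49 for Clec4f to 1.86 for Lyz2. None of the markers of either list was at 0. The medians were also above 0 for markers of B cells (1.94, 5 of 6 measured), of endothelial cells (0.70, 6 measured) and of stellate cells and fibroblasts (0.73, 8 measured). The B cell markers Cd79a, Cd79b and Ms4a1 were under the floor in control liver. The endothelial marker Stab2 (-0.04) and the stellate marker Reln (-0.0025) were below 0. Of 6 T cell markers only Cd3e was measured (0.41), and it was under the floor in control liver. Of 7 adipocyte markers 3 were measured: Adipoq was at 314.5 in L-Lpcat3 KO liver and 38.9 in control liver, Retn at 218.4 in L-Lpcat3 KO liver and 64.4 in control liver, both under the floor in control liver, and Elovl3, which hepatocytes also express, at -0.28. The cholangiocyte markers Epcam (-0.09) and Sox9 (-0.12), 2 measured of 5, were below 0 and near the floor. Every cell type carries a respiratory chain, and the part of the cell mixture in the values of the subunit genes was not tested.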

How the data were processed

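Liver RNA was hybridised by the authors to Affymetrix mouse expression arrays, 1 array per genotype with RNA of 5 mice pooled. The authors deposited 1 intensity per probe set and array, on a linear scale, made with MAS5 according to the submitters' notes (version not given), and the methods name GenespringGX for the analysis. With 2% of probe sets trimmed at each end, both arrays had a mean of 500.0. No library depth applies to arrays, and the number of arrays limits the precision.

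Probe sets with 1 gene symbol in the platform annotation were used (34945 of 45101, with 64 control probe sets left out), and older symbols were replaced by those of RefSeq (GRCm38.p6) with the same gene identifier. Values under the median of all values, 86.6, were raised to it, and log2 ratios were taken on the probe set of highest mean signal. Genes were counted at 1.5-fold and 2-fold. The signal of 5000 that marks genes of high signal was chosen after the values were seen. The members and lists were chosen with earlier results of these data known. Genes named by rule were those past 1.5-fold, the highest ratio, lowest ratio and highest signal of each complex, complex II, Cycs, Cyc1, the isoform families, genes whose probe sets differed by 2-fold, and the extremes of each list; the other genes named were chosen after their values were seen. Counting and scaling were tested on simulated data with known changes. Alternatives were median centring, quantile normalization, loess (span 0.3), floors at the 25th and 75th percentile, no floor, a pseudocount of 16, the mean of probe sets, and omission of probe sets designed to match more than 1 transcript. Python 3.11.15, numpy 2.4.6, pandas 2.3.3, statsmodels 0.14.6 and matplotlib 3.10.9 were used.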

Additional observations from a re-analysis of the deposited data

How the results depend on the processing

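No measured gene of the set reached 1.5-fold under median centring, quantile normalization, loess, the floor at the 75th percentile or the pseudocount. The same held with the mean of probe sets and without probe sets that can match several transcripts. It also held with no floor for the values of the 87 genes measured at the main floor. With the floor at the 25th percentile (25.5), 2 genes passed 2-fold, Cox4i2 (3.17-fold) and Cox6b2 (3.11-fold), both under the main floor on both arrays. The medians moved with scaling. Under quantile normalization they were -0.0074 for all genes of the set and also for complex I. Complexes III, IV and V were at -0.0132, 0.0593 and -0.0354. Under loess the medians were -0.0024 for all genes of the set and 0.0013 for complex I. In that setting complexes III, IV and V were at -0.0047, 0.0645 and -0.0175. The assembly factors of complex I had a median of -0.13 with the floor at the 75th percentile, over 7 genes, and also of -0.13 with the mean of probe sets, where complex IV was at -0.0322. Without probe sets that can match several transcripts, the medians were -0.0928 for all genes of the set (66 genes) and -0.0927 for complex I (25 genes). They were -0.22 for the assembly factors (6 genes) and -0.16 for complex III (7 genes). The number of genes below 0 ran from 45 (loess) to 67 (median centring). Of 39 single genes named by rule, 1 moved by more than the probe-set SD under quantile normalization (Cox7a2, 0.17), none under loess or median centring, and 6 with the mean of probe sets, among them Ndufb6 (-0.22), Ppargc1a (-0.41), and Cox8c (-0.07), Sdhc (-0.15) and Nrf1 (-0.16), which were above 0 on their brightest probe set. Without the probe sets that can match several transcripts, Ndufb6 was at -0.07, Ppargc1a at -0.03, Uqcr10 at -0.24 and Mrps9 at 0.17. No paired analysis was possible because each genotype has 1 pool, so no replicate could be left out either.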

Other observations

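Of the 10 probe sets that carry several gene symbols, 8 were measured. A probe set annotated to Ndufb4 and its copies Ndufb4b and Ndufb4c was at 8738 in L-Lpcat3 KO liver and 9788 in control liver (-0.16). Another with the same symbols was at 5373 in L-Lpcat3 KO liver and 5941 in control liver (-0.14). The one annotated to Ndufs6 and Ndufs6b was at 10300.4 in L-Lpcat3 KO liver and 9722 in control liver (0.08). The highest ratio, at least 0.88, was that of a probe set annotated to both Ndufb2 and Adck2, with 159.7 in L-Lpcat3 KO liver and 59.0 in control liver, where the control value was under the floor. The log2 ratios of the others were -0.17 (Ndufab1 and its pseudogene), -0.03 (Ndufs5 and its pseudogene), and -0.01 and 0.51 (Ndufa11 and Ndufa11b, the second at low signal). None of these signals can be given to 1 gene.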
